A study of Mus musculus with 6 samples.

Results

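The bone morphogenetic protein (BMP) pathway was followed through 10 genes, the ligand genes Bmp2, Bmp4, Bmp5 and Bmp7, the receptor gene Bmpr1a, and the target genes Id1, Id2, Id3, Msx1 and Msx2. Every probe set whose platform annotation gave exactly one of these symbols was taken, which yielded 23 probe sets among the 45037 tested, and 10 genes among the 18193 named on the array. All 10 genes had at least 1 probe set, and no filter on low values was applied. Of the 23 probe sets, 16 had a mean above the median of all probe sets.

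All RNA was taken from ER71 A17C, a line of mouse embryonic stem (ES) cells of the 129P2/Ola background that carries a cassette that expresses Etv2 (also called ER71) when doxycycline is given. All samples came from this single line, so the cassette was present in the controls too. The cells were grown as embryoid bodies, the aggregates in which ES cells differentiate, in hanging drops under a mesoderm-inducing condition. They were sorted at day 3.5 for Flk1, the VEGF receptor encoded by Kdr that marks early mesoderm with blood and vessel potential. The 3 induced samples had received doxycycline at 0.5 microg/ml from day 3, for 12 hours, and the 3 control samples none according to the series' design text. The treatment field itself carries the same doxycycline text for all 6. Groups come from the sample titles, and no doxycycline-treated line without the cassette was analysed here, so effects of the drug and of Etv2 cannot be told apart. Values below are log2 RMA levels, a scale on which 1 unit is a 2-fold difference, and each set of 3 values is given in the order of replicates 1, 2 and 3.

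BMPs are secreted dimers of the TGF-beta superfamily. They bind type II receptors together with type I receptors such as BMPR1A, which phosphorylate SMAD1, SMAD5 and SMAD9. With SMAD4 these enter the nucleus and raise transcription of genes such as the Id family, whose helix-loop-helix proteins lack a basic region and keep basic helix-loop-helix partners off DNA, and the Msx homeobox repressors. In the gastrulating mouse embryo BMP4 is needed for mesoderm, and in differentiating ES cells added BMP4 is widely used to obtain Flk1-positive mesoderm. There, Etv2 is known to act downstream of BMP signals.

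Promoter windows of RefSeq (GRCm38.p6), from 250 bases before to 50 bases after the gene's start, were found for 7 of the 10 genes. They are printed for Bmp4, Msx1, Msx2 and Id3, whose levels shared an order over the replicate numbers, and for Id2, whose levels did not. Each is written 5′ to 3′ on the gene's own strand, with matches to any of 3 motifs in capitals on either strand. The motifs were GGCGCC, the GC-rich core of BMP-responsive SMAD elements, CAGAC, or GTCTG on the other strand, a core of SMAD elements, and CCGGAA, or on the other strand TTCCGG, a core of many ETS sites. These letters were chosen after the levels had been seen.
Bmp4, chr14:46390620-46390919, minus strand: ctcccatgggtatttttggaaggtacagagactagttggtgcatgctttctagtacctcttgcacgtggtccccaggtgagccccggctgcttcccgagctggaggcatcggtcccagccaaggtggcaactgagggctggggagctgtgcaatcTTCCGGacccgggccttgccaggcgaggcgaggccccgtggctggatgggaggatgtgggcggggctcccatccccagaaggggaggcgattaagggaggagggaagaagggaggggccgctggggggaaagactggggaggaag
Msx1, chr5:37824536-37824835, minus strand: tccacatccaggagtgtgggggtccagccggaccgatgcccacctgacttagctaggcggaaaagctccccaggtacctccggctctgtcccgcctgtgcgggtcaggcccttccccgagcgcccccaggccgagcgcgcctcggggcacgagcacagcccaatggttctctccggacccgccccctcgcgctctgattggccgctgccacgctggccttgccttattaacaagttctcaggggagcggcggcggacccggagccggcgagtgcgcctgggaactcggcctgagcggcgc
Msx2, chr13:53472731-53473030, minus strand: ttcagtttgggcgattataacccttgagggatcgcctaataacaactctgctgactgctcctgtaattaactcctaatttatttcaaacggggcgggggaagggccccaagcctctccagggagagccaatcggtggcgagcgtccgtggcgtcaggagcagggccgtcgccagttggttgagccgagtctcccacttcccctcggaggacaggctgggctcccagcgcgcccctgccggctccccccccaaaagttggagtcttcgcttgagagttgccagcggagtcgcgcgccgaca
Id3, chr4:136143572-136143871, plus strand: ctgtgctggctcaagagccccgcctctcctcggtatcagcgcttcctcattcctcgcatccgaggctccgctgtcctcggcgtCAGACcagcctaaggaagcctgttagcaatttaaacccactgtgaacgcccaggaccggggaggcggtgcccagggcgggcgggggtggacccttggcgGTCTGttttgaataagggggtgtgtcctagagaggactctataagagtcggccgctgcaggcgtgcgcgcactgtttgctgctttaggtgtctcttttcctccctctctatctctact
Id2, chr12:25096043-25096342, minus strand: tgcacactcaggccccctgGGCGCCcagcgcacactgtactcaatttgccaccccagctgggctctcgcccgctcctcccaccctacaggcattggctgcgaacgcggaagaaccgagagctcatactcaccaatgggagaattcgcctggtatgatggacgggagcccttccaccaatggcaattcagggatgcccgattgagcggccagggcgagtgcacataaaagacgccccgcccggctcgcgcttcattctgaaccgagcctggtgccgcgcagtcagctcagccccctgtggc

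Of all 32851 promoter windows, 11.9% held GGCGCC, 49.6% CAGAC and 14.9% CCGGAA. In Bmp4 a single CCGGAA match began at position -95 from the start. Id3 held 2 CAGAC matches, at -167 and -68, and Id2 held 1 GGCGCC match at -231. In the windows not printed, Bmpr1a held 1 GGCGCC match at -198 and Bmp5 held 1 CAGAC match at -134. Bmp2, Bmp7 and Id1 had no window. The Msx1 and Msx2 windows held 0 matches to the 3 motifs. These counts describe letters in a window and not binding.

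Etv2 stood at 9.92, 8.59 and 10.71 in the controls and at 13.27, 13.28 and 13.36 in the induced samples. Every induced array lay above every control, with a log2 fold change of 3.56 ± 0.46 (SE), although its adjusted p in limma was 0.9998 and the 3 controls spread over 2.12 units. Kdr, the gene behind the sort, stood at 10.02, 8.40 and 10.97 on the control arrays and at 9.56, 9.36 and 10.52 on the induced arrays. Of the 9 nascent mesoderm markers listed, 8 were measured and T was not found by symbol. Their mean level ran from 10.43 to 11.76 in controls and from 10.78 to 11.39 on the induced arrays, with replicate 2 lowest for 8 of 8 and replicate 3 highest for 8 of 8 when the arrays of a number were averaged. The pluripotency list of 8 genes ran from 10.50 to 11.08 and from 10.70 to 10.85, and the endoderm list of 6 from 7.83 to 8.32 and from 8.14 to 8.29. Lists of 6 endothelial, 4 primitive erythroid and 4 neuroectoderm genes ran from 6.17 to 6.50, 6.82 to 7.21 and 6.63 to 7.15 over all arrays. Array medians lay at 7.34 to 7.35 except for induced 2, at 7.40.

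After 12 hours of Etv2 induction none of the 23 BMP probe sets passed the test for a change, and the levels of ligands, receptor and targets overlapped between the groups in all but 1 of them. In limma with Benjamini-Hochberg adjustment 0 of 23 passed an adjusted p of 0.05, and 1 had an unadjusted p under 0.05, the dim Bmp7 probe set 1432410_a_at. Among all 45037 probe sets 1 passed, or 0.00222%, which was a probe set of Hprt, a purine salvage gene, while 1.53% had an unadjusted p under 0.05. With the replicate number as a block 0 of the 45037 passed, so the Hprt call was lost. The adjusted p was 0.9998 for every one of the 23. Etv2 had the same adjusted p in limma although its groups did not overlap, so a missing call does not show that a gene was unchanged. Log2 fold changes of induced over control ran from -0.37 to 0.41 with a median of -0.0015, against a median of 0.0029 over all probe sets, and 11 were positive and 12 negative. For 14 of the 23 the sign turned under at least 1 other processing or with an array left out. The median size without regard to sign was 0.10 for these 23 and 0.067 for all probe sets. Only that Bmp7 probe set had groups that did not overlap, as did 6.42% of all probe sets. With 3 arrays against 3, an exact two-sided permutation test of a single probe set cannot give less than 0.1.

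**Figure D1:**
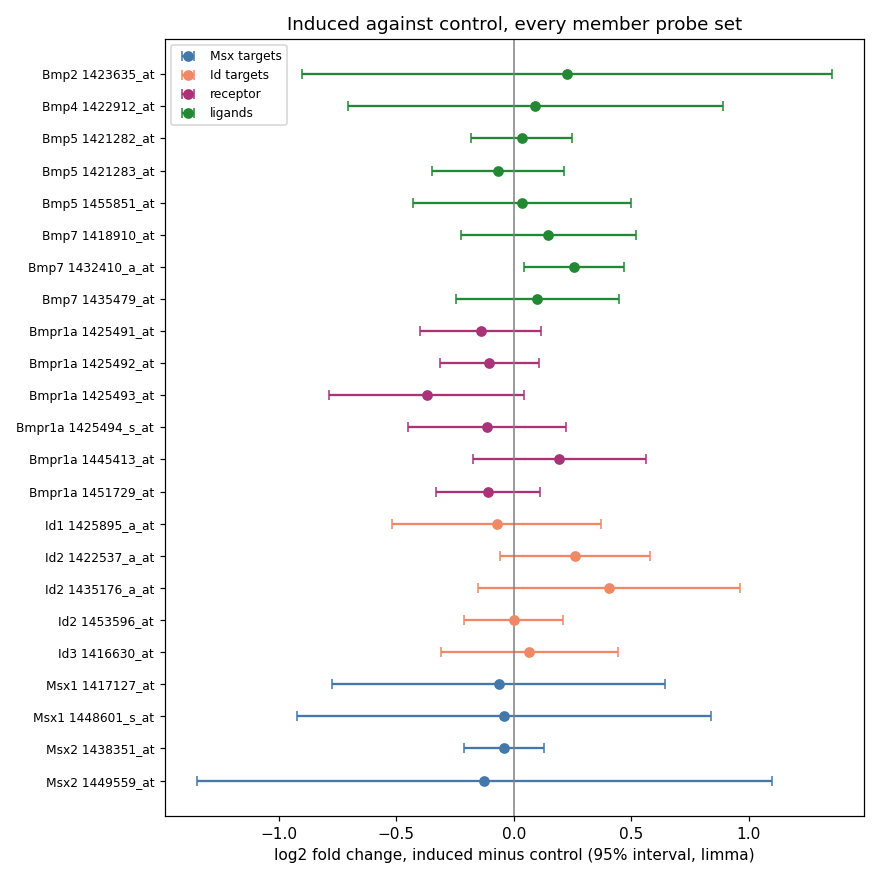
Log2 fold change of induced over control for each of the 23 probe sets (x axis, log2 units), coloured by role, with bars for limma's 95% interval. The intervals are from the fit without a replicate block. Those of 22 probe sets span 0, with Msx2 1449559_at and Bmp2 the widest. That of Bmp7 1432410_a_at runs from 0.043 to 0.47. In the fit with the replicate block, not drawn, the SE of Bmp2 was 0.085. There 3 of the 23 had an unadjusted limma p under 0.05, against 2.88% of all probe sets.

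Among the ligands, Bmp2 showed the clearest order over the arrays. Bmp2, which is expressed in endoderm and cardiac-forming regions of the embryo, stood at 7.80, 6.89 and 8.53 on the control arrays and at 7.92, 7.21 and 8.77 on the induced arrays (1423635_at). The induced array lay above the control of the same number in 3 of 3 pairs, by 0.12, 0.32 and 0.24, while the groups overlapped widely. The log2 fold change was 0.22 ± 0.48 (SE), with a 95% interval of -0.90 to 1.35, and it was -0.20 without control 2. With the replicate number as a block the unadjusted p was 0.037 and the adjusted p 0.9997, in a fit in which 2.88% of all probe sets, and 3 of the 23, had an unadjusted p under 0.05.

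Bmp4, the ligand of the proximal epiblast and early mesoderm, stood at 9.22, 8.66 and 9.76 on the control arrays and at 9.07, 8.89 and 9.95 on the induced arrays (1422912_at). Group means were 9.21 ± 0.55 (SD, n = 3) and 9.30 ± 0.57, and the log2 fold change of 0.091 ± 0.34 (SE) was well inside that spread. Replicate 2 was the lowest and replicate 3 the highest in both groups. The interval of the fold change in the fit without a block, -0.71 to 0.89 on the log2 scale, leaves room for a change of either sign. With the replicate number as a block the SE was 0.10 and the unadjusted limma p 0.42.

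Bmp5 and Bmp7 are related ligands of the same branch, which act redundantly in several mouse tissues. Bmp5 had 3 probe sets, and all 3 had a mean below the median of the array. The brightest of them, 1455851_at, stood at 7.06, 6.82 and 7.51 on the control arrays and at 6.98, 7.04 and 7.47 on the induced arrays, a log2 fold change of 0.034 ± 0.20 (SE). The dimmer 1421282_at stood at 6.10, 5.91 and 6.05 and at 6.11, 6.13 and 5.92, and 1421283_at at 5.90, 5.52 and 5.70 and at 5.56, 5.55 and 5.80. All 3 had overlapping groups, and their fold changes did not share a sign (0.034, 0.033 and -0.066).

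Bmp7 was read by 3 probe sets that differed in how the groups lay. The brightest, 1435479_at, stood at 9.26, 9.23 and 9.75 on the control arrays and at 9.38, 9.54 and 9.62 on the induced arrays. The next, 1418910_at, stood at 7.45, 7.44 and 7.79 and at 7.54, 7.54 and 8.03. In both the groups overlapped, with log2 fold changes of 0.10 ± 0.15 (SE) and 0.15 ± 0.16. The dim 1432410_a_at, at the 34.5th percentile of all probe sets, stood at 6.41, 6.46 and 6.31 on the control arrays and at 6.58, 6.79 and 6.57 on the induced arrays. There all 3 induced arrays lay above all 3 controls, with a log2 fold change of 0.26 ± 0.091 (SE), an unadjusted limma p of 0.024 and an exact permutation p of 0.1. Its highest value was on induced 2, the array with the higher median, and without that array the fold change was 0.18.

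The receptor gene Bmpr1a, whose product is the type I receptor also known as ALK3, had 6 probe sets. In 5 of them the fold change was negative, by -0.10 to -0.37 on the log2 scale, and induced 2 was the lowest array in each of these 5. The brightest, 1425492_at, stood at 11.09, 11.04 and 11.21 on the control arrays and at 11.09, 10.88 and 11.07 on the induced arrays, a log2 fold change of -0.10 ± 0.091 (SE). The most different, 1425493_at, stood at 9.60, 9.66 and 9.90 and at 9.48, 8.95 and 9.62. Its log2 fold change was -0.37 ± 0.18 (SE), lower in 3 of 3 pairs, with an unadjusted p of 0.073, or 0.025 with the replicate block. Without induced 2 it was -0.17, so that this array carried more than its share of the difference.

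The other Bmpr1a probe sets differed by less than 1425493_at. Of these, 1425491_at stood at 9.05, 9.14 and 9.24 on the control arrays and at 9.01, 8.82 and 9.18 on the induced arrays, and 1425494_s_at at 9.86, 9.72 and 9.81 and at 9.85, 9.35 and 9.86. 1451729_at stood at 7.50, 7.43 and 7.66 and at 7.50, 7.30 and 7.46. The dimmest, 1445413_at, went the other way, at 5.35, 5.50 and 5.58 and at 5.48, 6.04 and 5.50, with its highest value on induced 2. With array medians set equal, the log2 fold change of 1425493_at was -0.39, and with all arrays given the same distribution by a second quantile normalization it was -0.34. Over all the settings that left out no array it ran from -0.39 to -0.18.

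Of the Id targets, Id1 and Id3 had the same array order as each other while Id2 did not follow it. Id1, an early BMP target in many cell types, stood at 12.36, 11.79 and 12.37 on the control arrays and at 12.08, 11.86 and 12.37 on the induced arrays (1425895_a_at). Id3 stood at 11.58, 11.20 and 11.75 and at 11.50, 11.42 and 11.81 (1416630_at). From lowest to highest both ran control 2, induced 2, induced 1, control 1, control 3 and induced 3, which was also the order of Bmp4. For Id1 the last 3 of these arrays were nearly level, at 12.3636, 12.369 and 12.3705. Group means of Id1 were 12.17 ± 0.33 (SD, n = 3) and 12.10 ± 0.26, and those of Id3 were 11.51 ± 0.28 and 11.58 ± 0.21. Neither differed beyond this spread, which includes the replicate order that both groups shared. In the fit with the replicate block the log2 fold changes were -0.073 ± 0.10 (SE) for Id1 and 0.066 ± 0.092 for Id3. Their unadjusted limma p-values there were 0.49 and 0.50.

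Id2 was read by 2 bright probe sets and a dim one. 1435176_a_at stood at 9.31, 9.94 and 8.94 on the control arrays and at 9.98, 9.58 and 9.85 on the induced arrays, and 1422537_a_at at 9.32, 9.61 and 9.05 and at 9.65, 9.60 and 9.52. In both, the controls were highest in replicate 2 and lowest in replicate 3, and the induced samples were closer together. Their log2 fold changes, 0.41 ± 0.24 (SE) and 0.26 ± 0.14, had unadjusted p-values of 0.13 and 0.095. The dim 1453596_at stood at 5.98, 6.22 and 5.98 and at 6.11, 6.02 and 6.05, with a fold change of -0.0015. Over the 3 pairs 1435176_a_at was higher by 0.67, lower (-0.36) and higher by 0.90. Without control 3 its fold change was 0.18 and without control 2 it was 0.68, so single controls moved it by more than 1.5 times.

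Both Msx genes varied widely between the arrays of a group, in their brighter probe sets. Msx1, a homeobox repressor of early mesoderm and limb, stood at 11.53, 10.26 and 11.69 on the control arrays and at 11.06, 10.74 and 11.55 on the induced arrays (1448601_s_at). Its second probe set, 1417127_at, stood at 9.69, 8.75 and 9.98 and at 9.27, 9.22 and 9.74, in the same order of arrays. The log2 fold changes were -0.042 ± 0.38 (SE) and -0.065 ± 0.30. In the fit with the replicate block the SEs were 0.18 and 0.17, and the unadjusted limma p-values 0.82 and 0.72.

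Msx2, a close relative of Msx1 and likewise induced by BMPs, stood at 9.96, 8.38 and 10.36 on the control arrays and at 9.17, 8.97 and 10.19 on the induced arrays (1449559_at). Its control mean was 9.57 ± 1.05 (SD, n = 3) and its induced mean 9.44 ± 0.65. The log2 fold change was -0.13 ± 0.52 (SE) with an interval of -1.35 to 1.10. With the replicate number as a block the SE was 0.24 and the unadjusted limma p 0.61. The fold change was -0.72 without control 2, 0.27 without control 3 and 0.17 with the mesoderm marker mean as a covariate. A direction therefore cannot be given. Its other probe set, 1438351_at, at the 17.6th percentile, stood at 5.62, 5.48 and 5.56 and at 5.50, 5.53 and 5.51 and showed none of this variation.

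**Figure D2:**
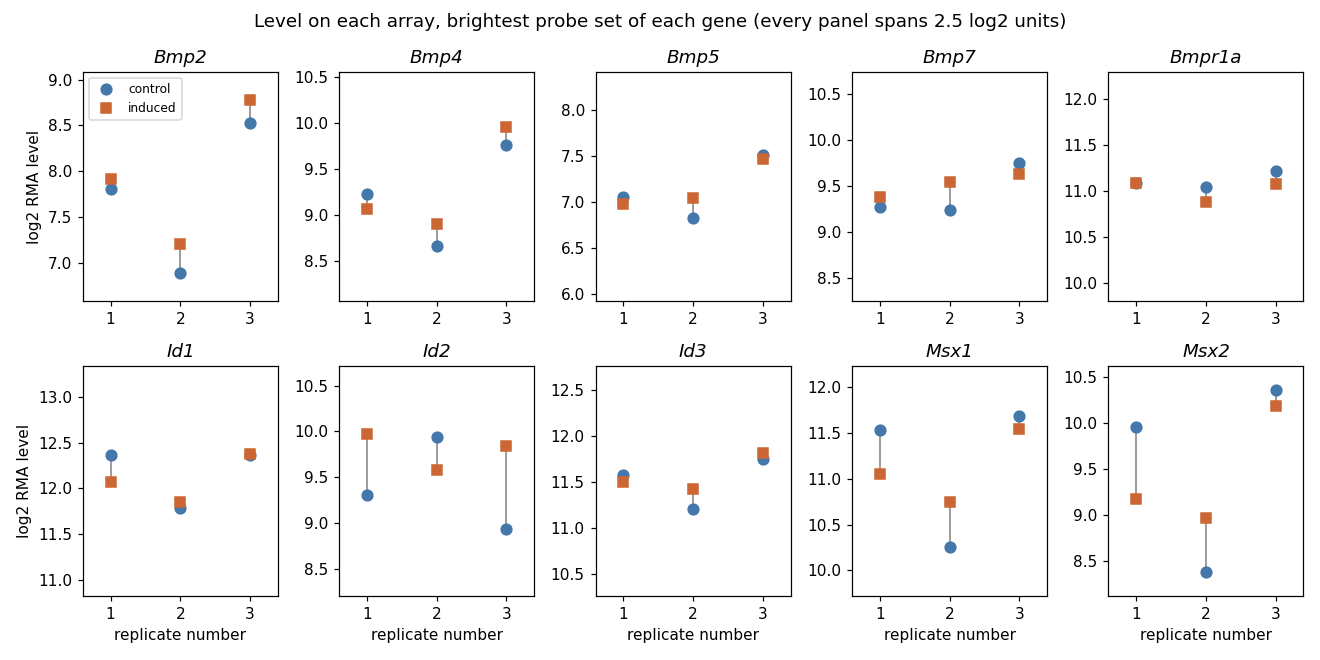
Log2 RMA level (y axis) of the brightest probe set of each of the 10 genes on each array, by replicate number (x axis). Blue circles are controls, orange squares induced samples, a grey line joins the arrays of a number, and every panel spans the same number of log2 units. Bmp2, Bmp4, Id1, Id3, Msx1 and Msx2 are lowest in replicate 2 and highest in replicate 3 in both groups, while Id2 is highest in replicate 2 among the controls alone.

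Several of these genes followed the replicate number of the array. In 8 of the 23 probe sets replicate 2 was the lowest and replicate 3 the highest within the controls and again within the induced samples, against 6.17% of all probe sets. The same held for 8 of the 16 that lay above the median level, against 9.73% of all such probe sets. The 8 were those of Bmp2, Bmp4, Id1 and Id3, both of Msx1, the brighter of Msx2, and 1418910_at of Bmp7. In 1418910_at replicates 1 and 2 were nearly level, at 7.4463 and 7.4413 in controls and 7.54499 and 7.54263 on the induced arrays. The brightest Bmp7 probe set, 1435479_at, did not follow the order on the induced arrays, where replicate 1 was lowest. Replicate 3 exceeded replicate 2 by 1.64 in controls and 1.56 on the induced arrays for Bmp2, and by 1.11 and 1.06 for Bmp4. The corresponding differences were 1.97 and 1.22 for Msx2, 1.43 and 0.80 for Msx1, 0.58 and 0.52 for Id1, and 0.55 and 0.39 for Id3.

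A limma fit with group and replicate number, chosen after these levels had been seen, tested the number by an F test over the whole table. It called 0 of the 23 probe sets at an adjusted p of 0.05, and 0% of all 45037, while 9 of the 23 had an unadjusted p under 0.05 against 8.32% of all. Bmp2 had the smallest p of the 23, with replicate 3 above replicate 2 by 1.60 ± 0.10 (SE), or 3.03-fold, and an adjusted p of 0.194. For Bmp4 the difference was 1.08 ± 0.13 (2.12-fold, adjusted p = 0.313). For Msx2 it was 1.60 ± 0.29 (3.02-fold, adjusted p = 0.352), and for Msx1 1448601_s_at 1.11 ± 0.22 (2.16-fold, adjusted p = 0.361). Id1 and Id3 differed by 0.55 ± 0.12 and 0.47 ± 0.11, with adjusted p-values of 0.424 and 0.474.

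The call for the replicate number depended on the setting. With 1 probe set a gene, Bmp2 passed at an adjusted p of 0.0339, against 0.011% of all genes, and with a trended and robust variance prior at 0.0218, against 0.0488% of all probe sets. Without the arrays of number 1, so that replicate 3 was set against replicate 2 directly, 4 of the 23 passed, against 0.582% of all probe sets. They were Bmp2 (adjusted p = 0.00289), Msx2 1449559_at (0.00584), Bmp4 (0.0125) and Msx1 1448601_s_at (0.0226). This setting was chosen after the replicate order had been seen, and the adjusted p-values of limma take no account of that choice. Without number 2 Bmp2 passed (0.0464), against 0.164% of all probe sets, and without number 3 none of the 23 did, against 0.00222%.

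**Figure D3:**
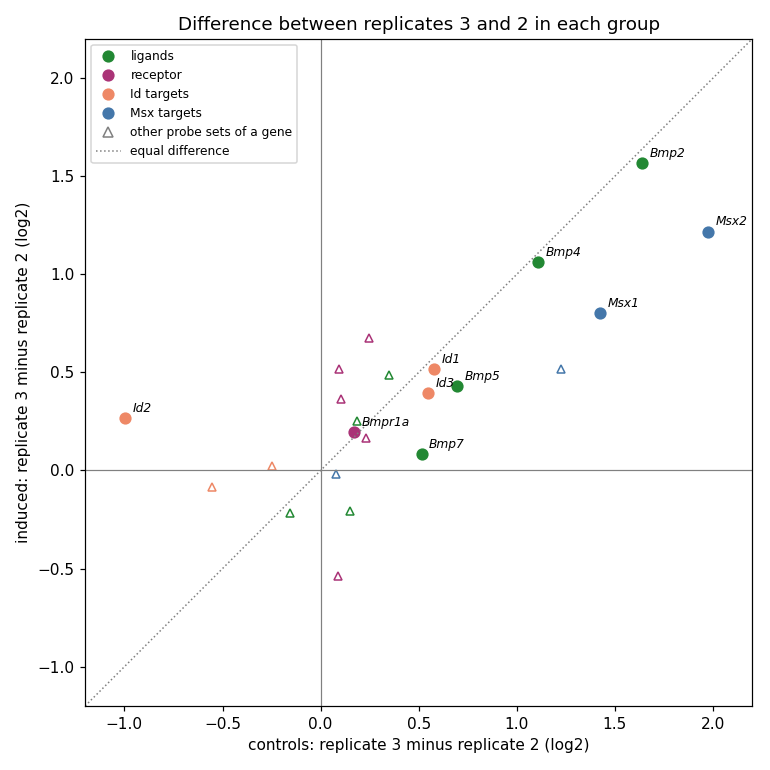
Difference between replicates 3 and 2 in the controls (x axis, log2) and in the induced samples (y axis, log2) for the 23 probe sets, coloured by role, with filled circles for the brightest probe set of each gene and open triangles for the others. The brightest probe sets of Msx2, Bmp2, Msx1 and Bmp4 lie farthest up to the right, at 1.11 to 1.97 in controls and 0.80 to 1.56 on the induced arrays, and Id2 lies to the left, at -0.998 and 0.27.

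The same replicate order was seen in Kdr and the mesoderm markers given above, while the pluripotency mean was highest in control 2 among all arrays. On the induced arrays that mean was highest in replicate 1, at 10.85 against 10.82 in replicate 2. With the arrays of a number averaged, 2 of the 8 pluripotency genes were lowest in replicate 2 and 2 were highest in replicate 3. Of the 6 endoderm genes, 2 (Sox17 and the dim Sox7) were lowest in replicate 2 and highest in replicate 3 by that average. For Sox17 replicate 3 exceeded replicate 2 by 1.79 ± 0.40 (SE), so the order was not confined to mesoderm markers. In sorted bulk RNA a smaller share of cells of a type and less RNA per cell cannot be told apart, and the part of cell make-up in the replicate differences was not tested. No label states what the replicate numbers share, whether a day, a culture or an array batch, and p-values measure only the spread between these samples.

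Msx2 had the largest spread over the 6 arrays among the brightest probe sets of the 10 genes, with an SD of 0.78. The genes nearest to it in pattern were found by the mean absolute difference of centred log2 values over the 6 arrays, among 9088 genes brighter than the median gene. They were Lhx1os, the antisense gene beside Lhx1, at 0.091, Asb4, an ankyrin-repeat and SOCS-box gene, at 0.094, Zfpm1, which encodes the GATA cofactor FOG1, at 0.11, Pth1r, a parathyroid hormone receptor gene, at 0.11, and Tbx6, a T-box gene of presomitic mesoderm that is also on the mesoderm marker list, at 0.12. Tbx6, for example, stood at 8.80, 7.30 and 9.15 on the control arrays and at 8.15, 8.06 and 8.84 on the induced arrays. With 6 arrays many genes can share an order, and this likeness is a description only.

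**Figure D4:**
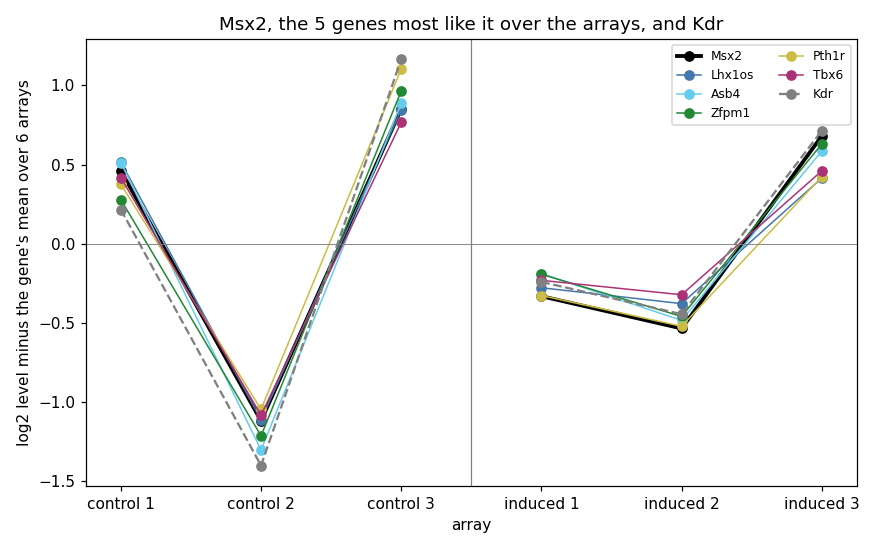
Log2 level minus the gene's own mean over the 6 arrays (y axis) on each array (x axis) for Msx2 (black), the 5 genes nearest to it in pattern (colours) and Kdr (grey, dashed). Lines join the points of a gene within a group and carry no order; all 7 genes are lowest in control 2 and highest in control 3.

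The rest of the pathway was read from a list of 49 further genes, 45 of them measured by 90 probe sets. None passed the test for induction. Of the 90, 0 passed limma's adjusted threshold in either direction, 1 had an unadjusted p under 0.05 (1.53% of all probe sets did), and 44 had positive and 46 negative log2 fold changes, with a median of -0.0033. The groups did not overlap in 5 of the 90, with 2 higher and 3 lower, a share near the 6.42% of all probe sets. In the F test of the replicate number 0 of the 90 passed and 23 had an unadjusted p under 0.05, against 8.32% of all probe sets.

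Among the remaining ligands, 0 of 10 probe sets passed in either direction. The 2 brightest genes were Gdf2, which encodes BMP9, at 8.22 in controls and 8.28 on the induced arrays, and the cardiac ligand gene Bmp10, at 7.32 and 7.49. Of 25 probe sets for other receptors and co-receptors, 0 passed. The type II receptor gene Acvr2b stood at 11.33 and 11.20 and the BMP type II receptor gene Bmpr2 at 10.57 and 10.50, with log2 fold changes of -0.13 ± 0.11 (SE) and -0.074 ± 0.12.

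The SMAD genes, which carry the signal to the nucleus, gave 0 of 13 probe sets past the threshold. Smad4, the common partner, varied little, at 12.73, 12.88 and 12.82 on the control arrays and at 12.81, 12.80 and 12.83 on the induced arrays. Smad1, a BMP-receptor substrate, stood at 12.74, 12.00 and 13.02 and at 12.37, 12.25 and 12.72, again with replicate 2 lowest and replicate 3 highest in both groups. Its replicate difference was 0.74 ± 0.17 (SE), with an unadjusted F test p of 0.0116 in limma and an adjusted p of 0.442. Smad6, an inhibitory SMAD that BMPs induce and chosen here after its values were seen, differed by 1.13 between replicates 3 and 2 and passed only without number 1 (adjusted p = 0.0212).

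Antagonists and modulators gave 0 of 23 probe sets past the threshold, and other BMP-responsive genes 0 of 19. The secreted activin and BMP antagonist gene Fst stood at 13.20 in controls and 13.19 on the induced arrays, and the ubiquitin ligase gene Smurf2 at 11.08 and 10.98. The homeobox gene Evx1, expressed in the primitive streak, stood at 11.01 and 10.98. Tbx3, a T-box gene downstream of BMP in several tissues, stood at 10.18, 8.55 and 11.05 on the control arrays and at 9.58, 9.15 and 10.77 on the induced arrays (1448029_at). Replicate 3 of Tbx3 exceeded replicate 2 by 2.06 ± 0.27 (SE), or 4.17-fold, with an adjusted F test p of 0.313 in limma. Bmper, which encodes a BMP-binding modulator and was chosen after its values were seen, differed by 2.32. Without number 1 both passed (adjusted p = 0.00339 and 0.00289), and 8 of the 90 probe sets did in all, against 0.582% of the whole table.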

How the data were processed

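Gene expression was measured on 6 Affymetrix mouse arrays, 3 control and 3 induced, grouped by the sample titles. Per the submitters' processing notes the authors used RMA, a method that corrects background, quantile-normalizes and summarizes probes, and the deposited values are on its log2 scale. No source used here names its version. Scanner files and detection calls were not used here. Of 45101 probe sets, 64 Affymetrix controls were set aside. Symbols came from the platform annotation (1 symbol for 34958, several for 932, no entry for 9211). No pair of arrays held identical values.

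Groups were compared with limma 3.58.1 (R 4.3.3), using lmFit and eBayes with two-sided tests. P-values were adjusted by Benjamini-Hochberg over all 45037 probe sets, at a threshold of 0.05. Precision is limited by the 3 arrays a group. The fit was also run on simulated data, whose outcome is not given here and is not used for any result. All probe sets of the 10 genes are named. The other pathway genes named are the 2 with the highest level in each list, unless said otherwise. The members and lists were chosen with earlier results of these data known.

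Deviations from the group means correlated at r = 0.25, 0.17 and 0.23 between same-numbered arrays, each above the 0.1 set for treating numbers as pairs. Control 1 with induced 3 (0.21) and control 2 with induced 1 (0.18) also exceeded 0.1, so the numbers are not singled out by this measure. This pairing comes from the values and the titles, and no label names a shared day or culture. Alternatives were the replicate block, 1 probe set a gene, quantile normalization, median centring, a filter on dim probe sets, array weights, a trended robust prior, the mesoderm marker mean as covariate, and leaving out arrays.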

Additional observations from a re-analysis of the deposited data

How the results depend on the processing

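No setting gave a call among the 23 probe sets for induction (0 in each). Of 371 fold changes over the settings, 319 kept their direction and 52, in 14 probe sets, turned. The 319 include values that could not turn. The replicate block, 1 probe set a gene, the filter on dim probe sets and the trended robust prior leave each fold change unaltered. The smallest adjusted p in limma was 0.965. With the replicate block 0 probe sets of the whole table passed, so that Hprt, its only call, was lost. No call changed among the BMP and other pathway probe sets. The fold change of Bmp2 stayed at 0.22, which the block cannot alter because each number holds 1 control and 1 induced array. Signs turned under array weights to -0.011 (Bmp5 1421282_at), 0.029 (Id2 1453596_at) and 0.027 (Msx1 1448601_s_at). A second quantile normalization gave 0.0088 for Msx1 1448601_s_at. With the mesoderm marker mean as covariate they became 0.025 (Id1), 0.11 (Msx1 1417127_at), 0.17 (Msx1 1448601_s_at) and 0.17 (Msx2 1449559_at). With arrays left out, Bmp2 ranged from -0.20 to 0.62 and Bmp4 from -0.23 to 0.37. The ranges were -0.061 to 0.12, -0.16 to 0.070 and -0.12 to 0.23 for Bmp5 1421282_at, 1421283_at and 1455851_at, -0.015 to 0.26 and -0.0037 to 0.27 for Bmp7 1418910_at and 1435479_at, and -0.20 to 0.055 for Bmpr1a 1425494_s_at. They were -0.27 to 0.049 for Id1, -0.065 to 0.098 for Id2 1453596_at, -0.088 to 0.19 for Id3, -0.43 to 0.19 and -0.49 to 0.22 for Msx1 1417127_at and 1448601_s_at, and -0.72 to 0.27 for Msx2 1449559_at. Calls for the replicate number, 0 in the full fit, were 1 with 1 probe set a gene and 1 with a trended robust prior. With both arrays of a number left out they ranged from 0 to 4, and from 0 to 8 among the other pathway probe sets. The replicate-number test and the leaving out of a whole number were chosen after seeing the data, and the cause was not tested. Precision is limited by 3 arrays a group, and 7 of the 23 probe sets lay below the median level with no detection calls.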
